A study of Mus musculus with 2 samples.

Results

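The collagen genes of the molar mesenchyme were taken as every gene symbol made of Col, a number, the letter a and a number, with nothing after it. The deposited tables held 42 such genes among 22072 gene symbols, in 47 transcript rows. Of these 42 genes, 22 reached 1 RPKM (read density along the transcript, relative to all mapped reads) in at least 1 library and were compared, and the other 20 are given by their levels only. Col6a3 was not analysed here, and Emid2, an older symbol of Col26a1 in RefSeq, lies outside the naming rule.

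The study took RNA from the mesenchyme of lower molars of mouse embryos on a mixed background at embryonic day 14.5. It set Osr2-/- mutants (n = 1 library) against Osr2+/- controls of the same age (n = 1 library), so the control also carries 1 mutant allele, although the series title speaks of wild type. Tissue was cut from frozen sections by laser capture, material from 3 sample pairs was pooled within each genotype before RNA extraction, and the RNA was amplified into cDNA. Osr2 encodes a zinc-finger transcription factor that restrains tooth formation on the tongue side of the molars, and the comparison asks how transcript levels differ without it. With 1 library per genotype there is no replicate check, no test of the genotype was possible, and every difference below is a difference between these 2 libraries.

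Collagens are trimers of chains that wind into a triple helix. Fibrillar types I, III and V build the fibrils of soft mesenchyme and bone, types II and XI those of cartilage, FACIT types sit on fibril surfaces, type IV forms the sheet of basement membranes, type VI forms beaded filaments, and a few types span the cell membrane. The dental mesenchyme at the cap stage is a dense, cell-rich tissue bounded by the basement membrane of the enamel organ and crossed by vessels, and it has not yet laid down dentine.

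The libraries differed in depth and in markers of other cells. The control held about 5.38 M mapped reads and the mutant about 34.3 M, as estimated from coverage, and the libraries came from separate lanes; lane and genotype cannot be told apart. Osr2 was at 38.7 RPKM in the control against 9.16 RPKM in the mutant, and which exons the allele lacks is not stated in the labels. All 10 dental mesenchyme markers, among them Msx1, Pax9 and Barx1, reached 1 RPKM, with a summed level of 425 RPKM in the control against 353 RPKM in the mutant. The 16 dental epithelium markers summed to 47.6 RPKM in the control, with Shh and Cldn7 listed at 0, and 66.2 RPKM in the mutant (Trp63, whose estimate failed in the mutant, was left out), so RNA of epithelium was present in both. In pooled tissue, fewer cells of a type and less RNA per cell cannot be told apart.

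Collagen transcripts as a whole differed little between the libraries. The 42 genes summed to 439 RPKM in the control against 432 RPKM in the mutant, a fold of 0.98 (95% counting interval 0.97 to 1.0). That was 0.404% of the summed RPKM of all genes in the control and 0.408% in the mutant. The intervals come from approximate read numbers and cover counting error only. None of the 22 genes compared was at least 2-fold apart on the log2(RPKM + 1) scale, a mark that 0.801% of the 9741 genes tested passed on the higher side and 0.77% on the lower side. Col2a1 was the collagen gene at least 1.5-fold higher, against 2.47% of all genes, and none was at least 1.5-fold lower, against 3.52%. The median log2 ratio of the 22 genes was -0.10, with 10 above 0 and 12 below, beside a median of -0.05 over all genes tested, which is a small offset of the whole table toward the control.

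A fold interval that left out 1 was more common among collagen genes, which are long and abundant. It lay above 1 for 4 of the 22 genes (Col2a1, Col6a2, Col11a1 and Col3a1), against 7.8% of all genes. It lay below 1 for 7 (Col8a1, Col4a2, Col15a1, Col1a2, Col4a1, Col5a1 and Col12a1), against 15.9% of all genes. The median collagen gene compared had 284 reads in the control and 1817 in the mutant, while the median of all genes tested had 57 and 349, so intervals of collagen genes were narrower, and these shares are not comparable at equal depth. Their longest transcripts had a median of 5596 bases, against 2871 bases over all genes tested. When the mutant values were divided by 0.959, the median mutant to control ratio of all genes tested, the split became 6 genes above 1 and 3 below. Col1a1 and Col5a2 then joined the genes above 1, and Col8a1, Col1a2 and Col4a2 were those still below. Over all genes the rescaled shares were 11.5% above and 11.8% below.

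**Figure D1:**
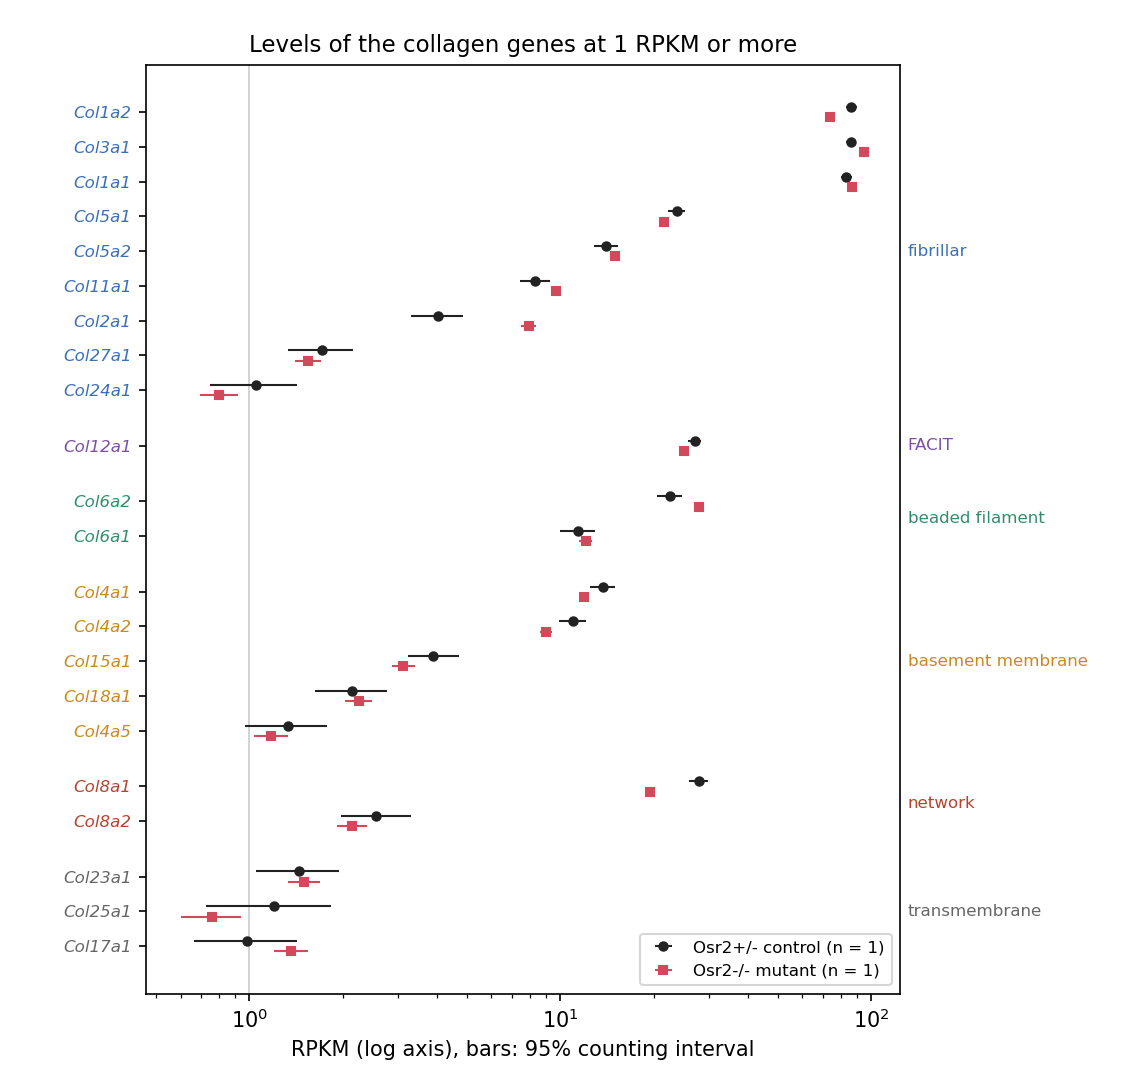
RPKM of the 22 collagen genes that reached 1 RPKM in at least 1 library, on a log axis, in the Osr2+/- control (black circles) and the Osr2-/- mutant (red squares), grouped by class; bars are 95% counting intervals and each library is n = 1. Col1a2, Col3a1 and Col1a1 lie between 73.4 and 94.5 RPKM, apart from all the others, which lie at or below 28.0 RPKM.

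The order of levels set a few fibrillar genes far above the rest. RPKM is scaled by transcript length, and levels of different genes are set side by side here with counting error only. The effect of the amplification on transcripts of unlike length or sequence was not measured. Col1a1, Col1a2 and Col3a1 together made up 58.3% of the collagen sum in the control and 59.0% in the mutant. In the control, Col1a2 (86.3 RPKM), Col3a1 (86.1 RPKM) and Col1a1 (83.2 RPKM) had overlapping counting intervals and could not be ranked. In the mutant the order was Col3a1 (94.5 RPKM), Col1a1 (86.7 RPKM) and Col1a2 (73.4 RPKM), with intervals apart. Between 5 and 50 RPKM stood 9 genes in the control and 10 in the mutant; Col2a1 is the gene that passed 5 RPKM in the mutant alone. Across the 22 genes, which share the same 2 libraries, log2(RPKM + 1) in control and mutant correlated with a Pearson r of 0.989, beside 0.964 across all genes tested. In the mutant Col6a2 stood above Col12a1, Col5a1 and Col8a1 in that order, with intervals apart; in the control the order was Col8a1, Col12a1, Col5a1 and Col6a2, where Col8a1 and Col12a1 could not be ranked, nor could Col5a1 and Col6a2.

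By class, the fibrillar collagens held 70.3% of the collagen sum in the control and 72.1% in the mutant. Their sum was 308 and 311 RPKM, a fold of 1.01 (0.99 to 1.03). The summed level of the beaded filament genes of type VI was higher in the mutant, at 34.3 and 40.3 RPKM, 1.18-fold (1.09 to 1.27). Col6a2 held 22.5 and 28.0 RPKM of these sums, and the fold interval of Col6a1 included 1. Lower sums were found for the basement membrane genes, at 32.2 and 27.8 RPKM, 1.16-fold lower (1.08 to 1.23), and for the network-forming genes, at 30.6 and 21.6 RPKM, 1.42-fold lower (1.31 to 1.53). The FACIT genes stood at 29.1 and 26.8 RPKM, 1.08-fold lower (1.03 to 1.14). The transmembrane genes stood at 4.06 and 3.80 RPKM, a fold of 0.94 (0.75 to 1.17) whose interval included 1. The genes behind each sum are described by class.

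**Figure D2:**
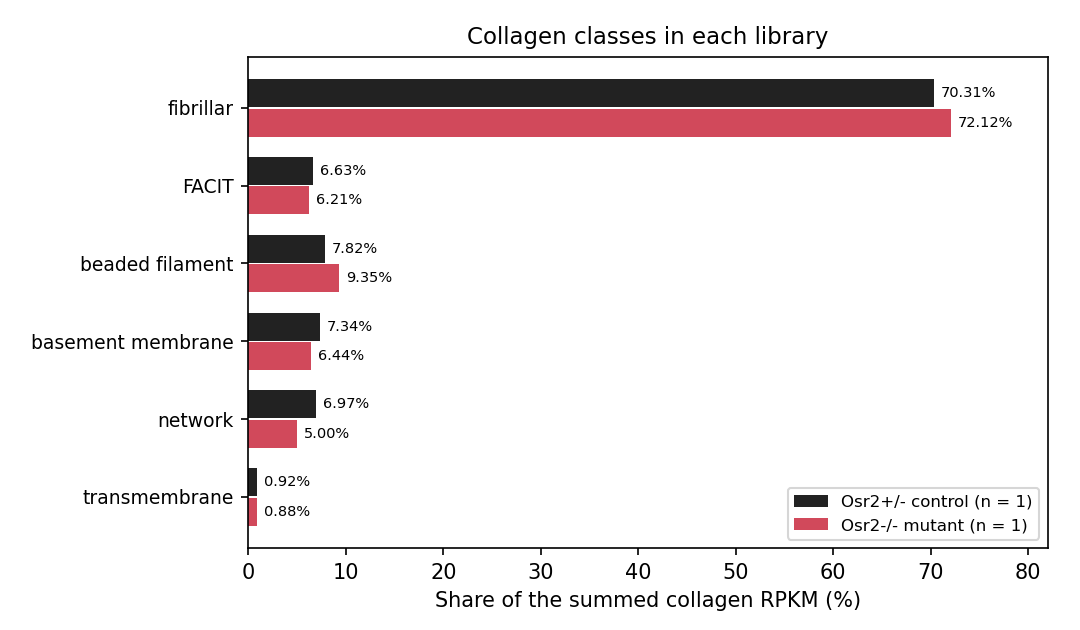
Share of the summed collagen RPKM held by each class, in percent from 0, in the Osr2+/- control (black) and the Osr2-/- mutant (red), n = 1 each, with no error drawn. Fibrillar genes hold 70.3% and 72.1%, beaded filament genes 7.82% and 9.35%, and network genes 6.97% and 5.0%.

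RefSeq promoter windows (GRCm38.p6, 250 bases before to 50 after a start site) matched 34 of the 42 genes by symbol; Col1a1, Col2a1, Col4a3, Col5a2, Col9a3, Col12a1, Col14a1 and Col22a1 were not matched. The 5 windows below are shown because they belong to the divergent pair Col4a1 and Col4a2, whose levels were lower together, to the abundant fibrillar genes Col1a2, lower in the mutant, and Col3a1, higher in it, and to Col8a1, which had the lowest log2 ratio. They are Col4a1 at chr8:11312777-11313076 on the minus strand, Col4a2 at chr8:11312555-11312854 on the plus strand, Col1a2 at chr6:4505368-4505667 on the plus strand, Col3a1 at chr1:45311288-45311587 on the plus strand and Col8a1 at chr16:57754688-57754987 on the minus strand. Each is written 5′ to 3′ along its own gene, and capitals mark every match on either strand to TATAAA (the core of a TATA box), to CCAAT (known by the same name as a box) or to GGGCGG (the core of a GC box), and no 2 matches overlap in these windows.
Col4a1: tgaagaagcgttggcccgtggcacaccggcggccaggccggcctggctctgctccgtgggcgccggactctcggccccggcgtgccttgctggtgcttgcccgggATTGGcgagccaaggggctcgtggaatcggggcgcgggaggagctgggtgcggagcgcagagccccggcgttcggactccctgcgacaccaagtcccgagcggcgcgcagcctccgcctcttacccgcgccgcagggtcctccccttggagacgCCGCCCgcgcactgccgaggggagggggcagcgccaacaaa
Col4a2: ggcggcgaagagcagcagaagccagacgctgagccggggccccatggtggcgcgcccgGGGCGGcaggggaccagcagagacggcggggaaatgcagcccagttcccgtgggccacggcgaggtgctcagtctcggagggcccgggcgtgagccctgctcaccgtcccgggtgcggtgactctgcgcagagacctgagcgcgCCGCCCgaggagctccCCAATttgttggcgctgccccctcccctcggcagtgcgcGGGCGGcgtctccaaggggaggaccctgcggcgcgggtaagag
Col1a2: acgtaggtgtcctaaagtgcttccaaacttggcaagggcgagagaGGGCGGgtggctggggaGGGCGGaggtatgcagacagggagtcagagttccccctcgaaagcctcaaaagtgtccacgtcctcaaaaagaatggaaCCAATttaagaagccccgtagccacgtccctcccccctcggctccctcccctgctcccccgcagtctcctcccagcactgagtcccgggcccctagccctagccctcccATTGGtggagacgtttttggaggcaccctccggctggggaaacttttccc
Col3a1: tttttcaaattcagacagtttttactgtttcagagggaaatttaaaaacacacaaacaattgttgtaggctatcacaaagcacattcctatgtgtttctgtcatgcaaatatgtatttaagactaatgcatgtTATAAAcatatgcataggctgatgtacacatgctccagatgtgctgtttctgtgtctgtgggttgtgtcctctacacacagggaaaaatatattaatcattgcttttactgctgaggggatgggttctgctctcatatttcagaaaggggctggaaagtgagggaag
Col8a1: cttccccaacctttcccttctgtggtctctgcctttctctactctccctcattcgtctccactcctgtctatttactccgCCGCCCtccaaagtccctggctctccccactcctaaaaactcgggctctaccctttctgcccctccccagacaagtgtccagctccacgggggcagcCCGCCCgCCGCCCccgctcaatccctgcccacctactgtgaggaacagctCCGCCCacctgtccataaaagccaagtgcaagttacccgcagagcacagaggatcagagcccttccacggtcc
The windows of Col4a1 and Col4a2 overlap by 78 bases, and their start sites lie 21 bases apart on opposite strands. Neither holds TATAAA, and their base composition is 74.0% and 73.7% G and C. Col1a2 holds 2 CCAAT and 2 GGGCGG matches, Col8a1 holds 4 GGGCGG matches, and Col3a1 is A and T rich with 37.7% G and C and 1 TATAAA match. Across the 37 windows of collagen genes, 62.2% held GGGCGG, 35.1% CCAAT and 13.5% TATAAA, beside 35.7%, 37.4% and 13.6% of 32851 promoter windows. The median G and C share was 60.0% against 52.7%, and a match describes letters only.

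Among fibrillar genes, the chains of type I collagen had unequal ratios between the libraries. Where values are given as a pair, the control comes first. Col1a1, which encodes the alpha1 chain of type I collagen (chromosome 11 from 94797584 to 94813170 in mm9, a transcript of 4698 bases), was at 83.2 RPKM (79.6 to 86.8) in the control against 86.7 RPKM in the mutant (85.2 to 88.1). Col1a2, the alpha2 chain gene (chromosome 6 from 4455697 to 4491543), was at 86.3 RPKM (82.9 to 89.8) and 73.4 RPKM (72.1 to 74.7). The intervals of Col1a1 overlapped between libraries and those of Col1a2 did not: Col1a1 was at a fold of 1.04 (0.995 to 1.09), while Col1a2 was 1.18-fold lower in the mutant (1.13 to 1.23). The common type I trimer holds more alpha1 than alpha2 chains. Within a library the RPKM ratio of Col1a1 to Col1a2 was 0.96 in the control (0.91 to 1.02) and 1.18 in the mutant (1.15 to 1.21). The ratio differed between the libraries by a factor of 1.23 (1.15 to 1.31), a value that no scaling of whole libraries can alter. Markers of osteoblasts, which make most of the type I collagen of bone, summed to 18.6 RPKM in the control against 50.5 RPKM in the mutant over 9 genes, with Ifitm5, Spp1 and Bglap listed at 0 in the control. Runx2, which is also on the dental mesenchyme list, held 13.4 and 24.7 RPKM of these sums. Of the 6 markers compared, 5 had a log2 ratio above 0, and Phex was 1.69-fold lower (1.25 to 2.26). The part of osteoblasts in the type I levels was not tested.

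Col3a1, the type III gene of soft connective tissue (chromosome 1 from 45368383 to 45406551), was at 86.1 RPKM (82.8 to 89.5) in the control against 94.5 RPKM in the mutant (93.1 to 95.9). It was 1.10-fold higher (1.05 to 1.14), with intervals that did not overlap. Its neighbour Col5a2 lies 24624 bases away and encodes the alpha2 chain of type V collagen, which sits inside type I fibrils and limits their width. Col5a2 was at 14.05 RPKM (12.9 to 15.3) and 15.02 RPKM (14.5 to 15.5), intervals that overlapped. Col5a1, the alpha1 chain gene of the same trimer (chromosome 2 from 27741945 to 27895030), was at 23.6 RPKM (22.2 to 25.1) and 21.6 RPKM (21.1 to 22.1), 1.09-fold lower (1.02 to 1.17). After the rescaling by the median ratio, the interval of Col5a1 included 1 (0.89 to 1.02). The ratio of Col5a1 to Col5a2 was 1.68 in the control (1.51 to 1.87) and 1.44 in the mutant (1.38 to 1.5), lower by a factor of 0.85 (0.76 to 0.96). Col5a3, a further type V chain gene, was at 0.0722 and 0.0429 RPKM.

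Col2a1, the fibril gene of cartilage, had the largest difference of the 22 genes. It lies on chromosome 15 from 97806033 to 97835155 in mm9. It was at 4.05 RPKM (3.31 to 4.87, about 108 reads) in the control against 7.90 RPKM in the mutant (7.49 to 8.34), 1.95-fold higher (1.60 to 2.39). The gene is spliced with or without exon 2, which encodes a cysteine-rich domain of the N-propeptide. The row that holds exon 2, 204 bases long in GENCODE M21, was at 0.896 RPKM in the control against 0.695 RPKM in the mutant, a fold of 0.78 (0.49 to 1.23). The row without exon 2, the form that mature chondrocytes make, was at 3.15 and 7.21 RPKM, 2.29-fold higher (1.82 to 2.87). The row without exon 2 thus held 77.9% of the Col2a1 RPKM in the control and 91.2% in the mutant. Cufflinks splits reads between rows that share nearly all their sequence, so the shares of the rows are estimates. Col11a1, whose product co-assembles with type II chains, was at 8.28 RPKM (7.40 to 9.23) and 9.68 RPKM (9.30 to 10.1), 1.17-fold higher (1.04 to 1.32). The ratio of Col2a1 to Col11a1 was 0.49 in the control (0.39 to 0.61) and 0.82 in the mutant (0.76 to 0.87).

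The other cartilage collagens stayed below 1 RPKM in both libraries. Col11a2 was listed at 0 in the control and stood at 0.232 RPKM in the mutant (about 45 reads). The type IX genes, which encode a FACIT on the surface of type II fibrils, were at 0.328 and 0.163 RPKM (Col9a1), 0.281 and 0.372 RPKM (Col9a2) and 0.287 and 0.14 RPKM (Col9a3). Col10a1, the gene of hypertrophic chondrocytes, was at 0.135 and 0.105 RPKM. Of 9 cartilage markers only Sox9, Sox6 and Hapln1 reached 1 RPKM, and the list summed to 8.51 RPKM in the control against 10.7 RPKM in the mutant. Acan, Matn1, Matn3, Comp and Ucma were listed at 0 in the control; in the mutant Matn1 was listed at 0 and Acan stood at 0.00956 RPKM on about 2 reads. Col24a1, at 1.05 and 0.80 RPKM, and Col27a1, at 1.71 and 1.54 RPKM, which complete the fibrillar class, had intervals that included 1.

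**Figure D3:**
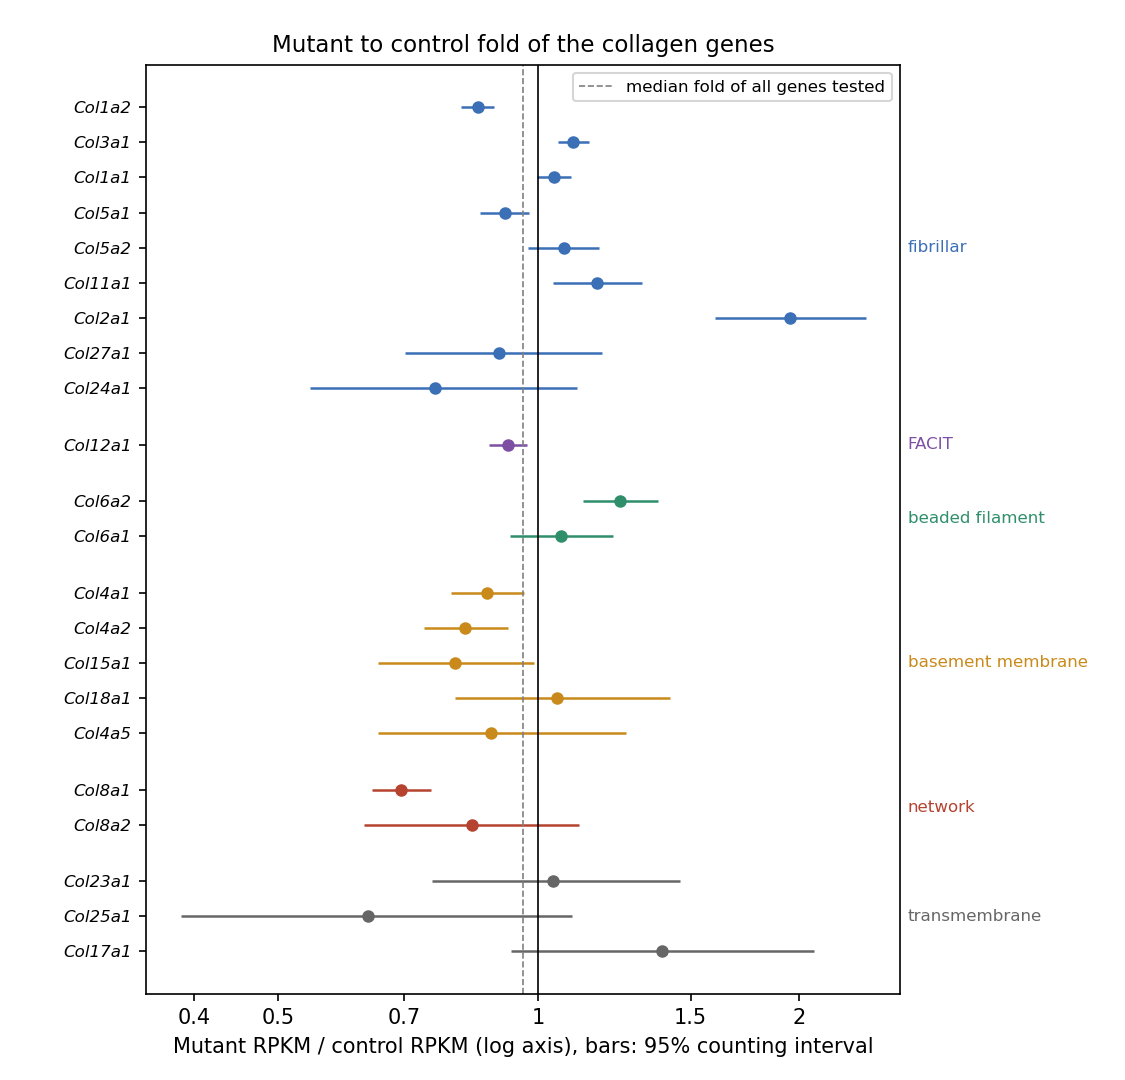
Mutant to control RPKM fold of the 22 collagen genes compared, on a log axis, coloured by class; bars are 95% counting intervals from approximate reads of 1 library each, the solid line marks 1 and the dashed line the median fold of all genes tested, 0.959. Col2a1 lies farthest to the right at 1.95, and Col8a1, at 0.69 (0.64 to 0.75), lies lowest of the genes whose interval leaves out 1.

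Type VI collagen forms beaded filaments around cells, and of its genes Col6a2 was the higher in the mutant beyond counting error. Col6a2 (chromosome 10 from 76058501 to 76086149) was at 22.5 RPKM (20.5 to 24.7) in the control against 28.0 RPKM in the mutant (27.1 to 28.9). It was 1.24-fold higher (1.13 to 1.37). Its neighbour and chain partner Col6a1, 85387 bases away, was at 11.4 RPKM (9.98 to 12.9) and 12.1 RPKM (11.5 to 12.7), with overlapping intervals. The ratio of Col6a2 to Col6a1 was 1.98 in the control (1.69 to 2.32) and 2.32 in the mutant (2.18 to 2.46), and the change of that ratio, 1.17 (0.99 to 1.38), had an interval that included 1. The alternative type VI chains, which lie side by side on chromosome 9, were at most 0.434 RPKM: Col6a6 was at 0.434 and 0.225 RPKM, Col6a4 at 0.0265 and 0.0325 RPKM, and Col6a5 was listed at 0 in the control and stood at 0.0508 RPKM in the mutant.

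Of the 9 basement membrane genes, 5 were compared, and Col4a1, Col4a2 and Col15a1 had an interval below 1; the median log2 ratio was -0.18 over these 5 and 0.0056 over all 9. Col4a1 and Col4a2, the chains of the widespread type IV trimer, lie head to head on chromosome 8, with 2 bases between them in the mm9 positions. The GRCm38 start sites of the promoter windows, 21 bases apart, instead place the start of Col4a2 within Col4a1. Col4a1 (from 11198423 to 11312826) was at 13.7 RPKM (12.5 to 14.9) in the control against 11.9 RPKM in the mutant (11.5 to 12.4), 1.15-fold lower (1.04 to 1.26). Col4a2 (from 11312829 to 11449287) was at 10.9 RPKM (9.86 to 12.1) and 9.01 RPKM (8.62 to 9.42), 1.21-fold lower (1.08 to 1.36). The ratio of Col4a1 to Col4a2 was 1.25 in the control (1.09 to 1.43) and 1.32 in the mutant (1.25 to 1.4), a change of 1.06 (0.91 to 1.22) whose interval included 1. Each gene of the pair differed beyond counting error, and of the 2 Col4a2 kept an interval below 1 after the rescaling.

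Of the tissue-restricted type IV chains, Col4a3 and Col4a4, which adjoin on chromosome 1 with 71 bases between them, were listed at 0 in the control, while the mutant had 0.00386 and 0.0231 RPKM. Col4a5 and Col4a6 adjoin on chromosome X with 1342 bases between them. Col4a5 was at 1.33 RPKM (0.966 to 1.77) in the control against 1.17 RPKM in the mutant (1.04 to 1.33), and Col4a6 at 0.0958 and 0.137 RPKM. The rows of Col4a5 differed in their split: the shorter held 1.33 RPKM in the control against 0.573 RPKM in the mutant, while the row 172 bases longer was listed at nearly 0 in the control and at 0.601 RPKM in the mutant, with about 134 reads. As for Col2a1, the shares of these rows are estimates by Cufflinks, and in the control the split rests on about 45 reads. Xist, which marks cells with an inactive X chromosome, was at 5.21 and 30.0 RPKM in the same libraries; its part in the X-linked levels was not tested.

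The multiplexins, which link basement membranes to the tissue beneath, were at low levels. Col15a1 was at 3.9 RPKM (3.22 to 4.71) in the control against 3.13 RPKM in the mutant (2.88 to 3.40), 1.25-fold lower (1.01 to 1.53). These intervals of its levels overlapped, and after the rescaling its fold interval included 1 (0.68 to 1.03). Col18a1, whose product is the source of endostatin, was at 2.14 RPKM (1.62 to 2.76) and 2.25 RPKM (2.03 to 2.48), with overlapping intervals. Col7a1, the anchoring fibril gene of epithelia, was at 0.107 and 0.175 RPKM. Endothelial markers, whose cells make type IV collagen and types XV and XVIII, summed over 12 genes to 47.7 RPKM in the control against 37.1 RPKM in the mutant, with none listed at 0, while the epithelial markers were higher in the mutant. The part of either cell type in these levels was not tested.

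Type VIII collagen is a short-chain collagen that forms hexagonal networks, and its gene Col8a1 had the lowest log2(RPKM + 1) ratio of the 22 genes, -0.51. Col8a1 (chromosome 16 from 57624369 to 57754850) was at 27.9 RPKM (25.9 to 29.9, about 766 reads) in the control against 19.3 RPKM in the mutant (18.7 to 20.01). Its intervals were well apart, and it was 1.44-fold lower (1.33 to 1.56). Its partner gene Col8a2, on another chromosome, was at 2.56 RPKM (1.97 to 3.32) and 2.14 RPKM (1.91 to 2.39), with overlapping intervals. The ratio of Col8a1 to Col8a2 was 10.9 in the control (8.31 to 14.3) and 9.03 in the mutant (8.05 to 10.2), so the chains stood far apart in level in both libraries. The difference of Col8a1 stayed short of the 1.5-fold mark.

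**Figure D4:**
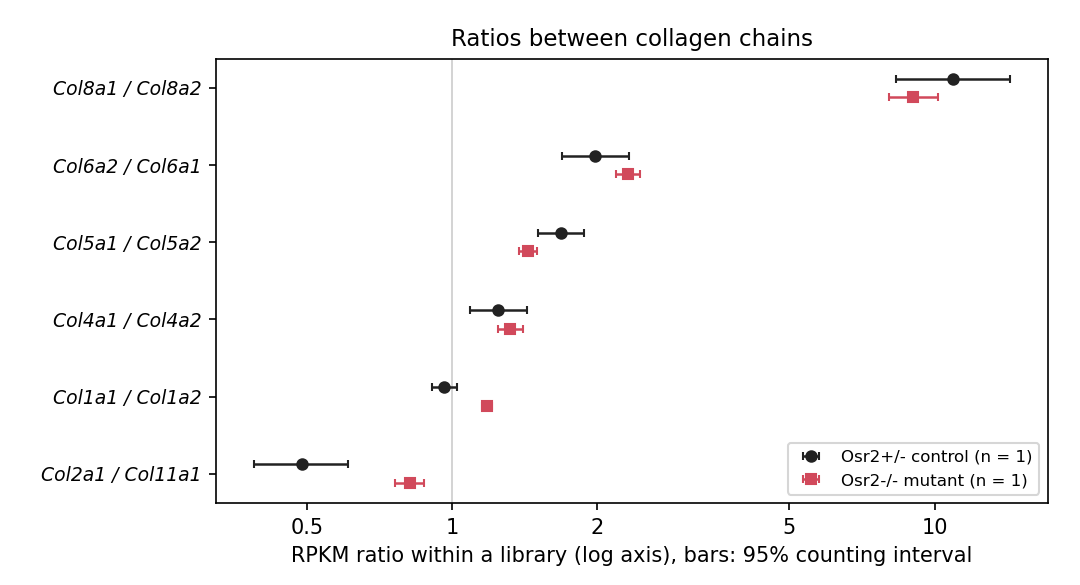
RPKM ratio of collagen chains of 1 type, or that co-assemble, within the Osr2+/- control (black circles) and the Osr2-/- mutant (red squares), on a log axis; bars are 95% counting intervals, n = 1 library each. The intervals of Col1a1 to Col1a2 (0.96 and 1.18) and of Col2a1 to Col11a1 (0.49 and 0.82) are apart, with the mutant higher. Those of Col5a1 to Col5a2 (1.68 and 1.44) are apart with the mutant lower, and those of Col4a1 to Col4a2 (1.25 and 1.32) overlap.

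Among FACIT genes, Col12a1 alone was abundant. Col12a1, which encodes a large collagen on the surface of type I fibrils in dense connective tissue (chromosome 9 from 79446798 to 79566485, with the longest transcript of the family at 11659 bases), was at 27.1 RPKM (25.8 to 28.4) in the control against 24.97 RPKM in the mutant (24.5 to 25.5). It was 1.08-fold lower (1.03 to 1.14), and after the rescaling its interval included 1 (0.91 to 1.01). Col16a1, at 0.996 and 0.696 RPKM, lay just under the limit of 1 RPKM, while Col17a1, at 0.980 and 1.36 RPKM, passed it through the mutant library. Col19a1 was at 0.0711 RPKM in the control on about 4 reads and 0.247 RPKM in the mutant on about 89 reads. Col14a1 was at 0.0525 and 0.172 RPKM, and Col20a1 and Col22a1 were listed at 0 in the control, while the mutant had 0.0340 and 0.0371 RPKM. Markers of tendon, a tissue rich in types XII and XIV, summed over 5 genes to 5.95 RPKM in the control against 13.8 RPKM in the mutant; their part in these levels was not tested.

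Transmembrane collagens were low in both libraries and none had an interval that left out 1. Col17a1, the hemidesmosome collagen of basal epithelial cells, was at 0.980 RPKM (0.665 to 1.43) in the control against 1.36 RPKM in the mutant (1.2 to 1.54), a fold of 1.39 (0.93 to 2.08). The dental epithelium markers Krt14, at 5.80 and 8.28 RPKM, and Krt17, at 1.48 and 4.63 RPKM, stood higher in the same library, and the part of epithelium in the Col17a1 level was not tested. Col23a1 was at 1.44 and 1.5 RPKM and Col25a1 at 1.19 and 0.758 RPKM, a fold of 0.63 (0.39 to 1.09) on about 20 control reads. Col13a1, found at cell contacts and nerve-muscle junctions, was at 0.440 and 0.179 RPKM. Col28a1 was listed at 0 in both libraries. Emid2, outside the naming rule, was at 14.3 and 16.6 RPKM, a fold of 1.16 (1.0 to 1.35).

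Of the 20 genes below 1 RPKM in both libraries, the control listed 7 at 0 and the deeper mutant library listed 1, Col28a1. The best covered of them had about 28 control reads. The interval left out 1 for 3 of the 20. The matching share over all genes below 1 RPKM was not computed, so this count has nothing to stand beside. Col19a1 was higher in the mutant (1.32 to 13.1) on about 4 control reads. Col11a2 was listed at 0 in the control with a lower bound of 1.84, and Col6a6 was 1.93-fold lower (1.09 to 3.52). Differences of the other 17 were not detectable at this depth.

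As a list, genes that modify and fold procollagen were nearly level between the libraries. Of 18 on the list, 17 were compared, with a median log2 ratio of 0.01; 2 had an interval above 1 and 2 below, where all genes had 7.8% above and 15.9% below. Leprel1, a prolyl 3-hydroxylase gene, was at 4.41 and 2.46 RPKM, 1.79-fold lower (1.29 to 2.42), and was the member at least 1.5-fold apart. Fkbp10, a chaperone gene of procollagen, was at 9.20 and 11.7 RPKM, 1.27-fold higher (1.05 to 1.53). Crtap, a gene of collagen prolyl 3-hydroxylation, was at 11.4 and 9.32 RPKM and Fkbp14, another prolyl isomerase gene, at 4.62 and 3.67 RPKM, both with intervals that included 1. The other genes with an interval away from 1, named after their values were seen, were Serpinh1, which encodes the collagen chaperone Hsp47, at 59.9 and 51.5 RPKM, and Plod2, a lysyl hydroxylase gene, at 17.9 and 20.3 RPKM.

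The secretion and propeptide processing lists are short, and their counts stand beside 7.8% of all genes with an interval above 1 and 15.9% below. Of 8 secretion genes 7 were compared, with a median log2 ratio of -0.15, none with an interval above 1 and 3 below. Ctage5, which works with the cargo receptor Mia3 at exit sites of the endoplasmic reticulum, was at 7.66 and 5.50 RPKM, 1.39-fold lower (1.12 to 1.68). Klhl12 was at 1.89 and 1.19 RPKM, Sec24d at 7.82 and 6.48 RPKM, and Trappc2 at 0.667 and 1.18 RPKM with an interval that included 1. Of 8 processing genes 5 were compared, all 5 with a log2 ratio below 0, as for 5607 of the 9741 genes tested, and 2 with an interval below 1. Tll1, a protease of the Bmp1 family that removes C-propeptides, was at 2.04 and 1.02 RPKM, 2.0-fold lower as a plain ratio (1.45 to 2.73). Adamts3, an N-propeptide protease gene, was at 1.5 and 1.09 RPKM, and Bmp1 and Pcolce, its enhancer, were at 4.82 and 4.21 RPKM and at 29.8 and 26.9 RPKM with intervals that included 1.

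The crosslinking genes were the pathway list with the lowest median, -0.28 on the log2 scale over 4 genes compared of 5. Lox, which encodes lysyl oxidase and starts the crosslinks of collagen and elastin, was at 7.10 and 3.18 RPKM, 2.23-fold lower (1.83 to 2.73). Loxl1 was at 3.50 and 2.76 RPKM, Loxl3 at 1.74 and 1.22 RPKM and Loxl2 at 9.02 and 9.24 RPKM, with intervals that included 1. Of 10 receptor and uptake genes 6 were compared, with a median of -0.10. Itga11, the fibrillar collagen integrin of mesenchyme, was at 0.470 and 1.19 RPKM, 2.53-fold higher (1.47 to 5.17). It passed the limit of 1 RPKM through the mutant library alone and had about 12 control reads. Itga1, an integrin gene of the same list left under that limit, was at 0.942 and 0.443 RPKM, 2.13-fold lower (1.34 to 3.21). Ddr2, a receptor tyrosine kinase for fibrillar collagen, was at 5.97 and 7.31 RPKM, 1.22-fold higher (1.08 to 1.4). Mrc2, an uptake receptor for collagen fragments, was at 8.89 and 7.48 RPKM, and Itga2 at 1.04 and 0.692 RPKM.

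Of 7 collagen-cleaving proteases 4 were compared, 1 with a log2 ratio above 0 and 3 below, beside 5607 of the 9741 genes tested below 0. Mmp9, a gelatinase gene of osteoclasts and other cells, was at 0.502 RPKM in the control against 4.66 RPKM in the mutant, 9.27-fold higher (4.94 to 22.9). It reached 1 RPKM in the mutant library alone and had about 8 control reads. Ctsk, the cathepsin gene that breaks down bone collagen, was at 5.07 and 2.65 RPKM, 1.92-fold lower (1.30 to 2.73), and Mmp14, the membrane-bound collagenase gene, at 25.04 and 19.7 RPKM, 1.27-fold lower (1.13 to 1.43). Mmp2 was at 26.4 and 23.7 RPKM, with an interval that included 1.

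**Figure D5:**
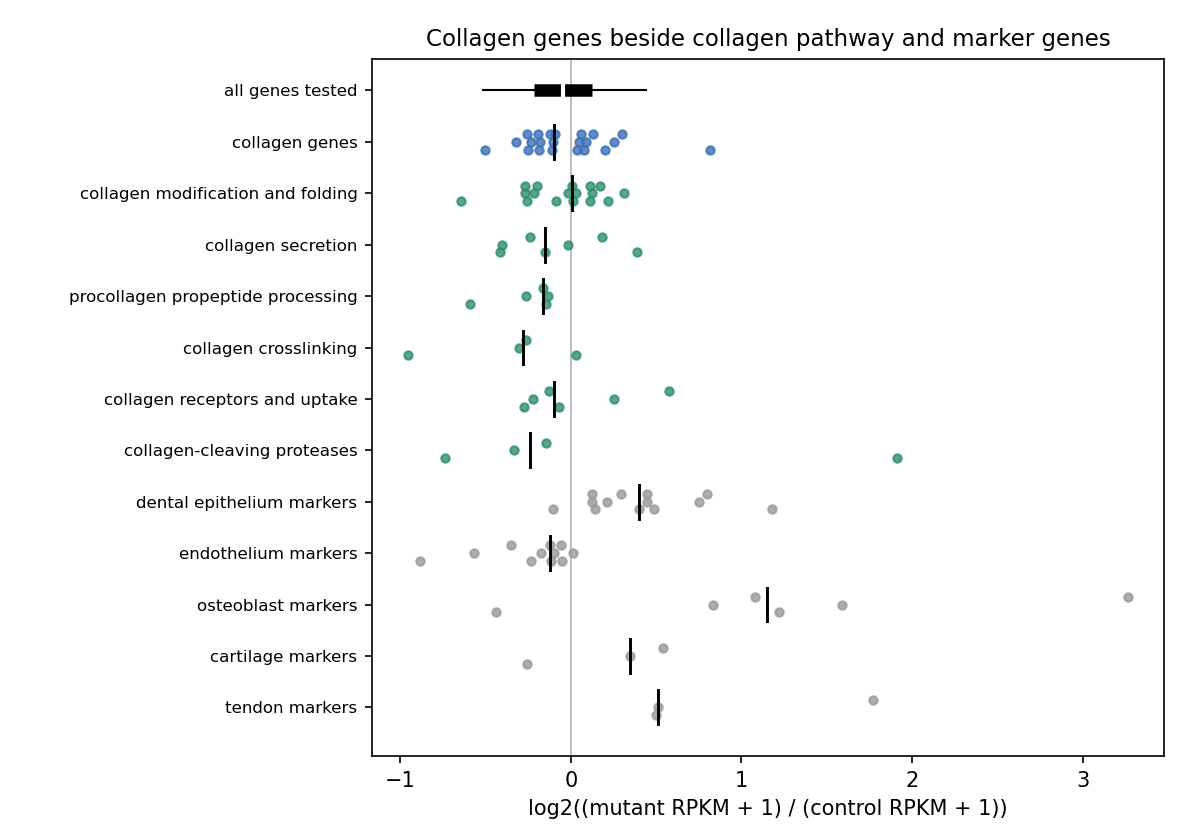
Log2 ratio of mutant over control (RPKM + 1) of each gene compared in the collagen family, the collagen pathway lists and marker lists of other cells; 1 dot per gene, a black line at each list's median, and for all 9741 genes tested a thick bar from the lower to the upper quartile and a thin line from the 5th to the 95th percentile. The collagen genes lie from -0.51 to 0.82 with a median of -0.10. All lists show only genes that reached 1 RPKM, some of them through the mutant library alone, so the medians are not those of the whole lists.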

How the data were processed

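Collagen members and gene lists were chosen with earlier results of these data known. Alignment tools named in the submitters' processing notes are Bowtie 0.12.7 and TopHat 1.4.1, with the mm9 build. The authors deposited 28107 transcript rows per library, each with an RPKM, used as it stands, and a coverage, which is the mean number of reads over a base and is not scaled to library size. Rows of a symbol were summed after 348 rows whose status was not OK were left out, and 9741 genes with at least 1 RPKM in a library were tested. Log2 ratios used a pseudocount of 1 RPKM and understate differences of low genes; folds are plain ratios. Reads were approximated as coverage times length over 44.3 bases, the position of the smeared peak of the smallest products of coverage and length (20 to 66 bases), so they are estimates and no count model was fitted. From them came 95% exact Poisson intervals of levels, Clopper-Pearson intervals of folds (scipy 1.17.1, tested on simulated reads) and log-normal intervals of sums and of changes in chain ratios. Reads were amplified and carry no molecular identifiers, so the intervals cover counting error only. Named were all members and up to 4 genes per pathway list with the largest absolute log2 ratio. Serpinh1, Plod2, Glt25d2 and Itga1 were named after their values were seen. Gene positions are in mm9, counted from 1.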

Additional observations from a re-analysis of the deposited data

How the results depend on the processing

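Under 5 of 7 alternative settings the log2 ratios of all 22 collagen genes could be set beside the reported ones and kept their sign. Among these settings, only the TPM scale and the division by the median ratio could have changed a sign. Dropping the filter or keeping rows of any status left the ratios as they were, and a smaller pseudocount cannot turn a sign. The filter of 5 RPKM left 13, and a filter does not alter their ratios. The highest row per gene left 21, among which Col18a1 was at 0.05 with its rows summed and -0.01 with its highest row alone. Col2a1 was at least 1.5-fold higher in each setting. With a pseudocount of 0.1, 1 gene (Col25a1) was at least 1.5-fold lower. With the filter of 5 RPKM the median log2 ratio of the collagen genes was 0.059, against -0.098. On the TPM scale, where values are larger beside the pseudocount and the filter and 34 collagen genes passed, 2 passed the 2-fold mark on the higher side (Col11a2 and Col19a1), 4 the 1.5-fold mark on that side and 4 the 1.5-fold mark on the lower side, among 14023 genes of which 6.31%, 12.0% and 11.7% did so. The log2 ratio of the summed collagen level was -0.02 as deposited, 0.017 on the TPM scale and 0.037 after division by the median ratio. No paired analysis was possible because each genotype has 1 pooled library, and for the same reason no replicate could be left out. The control's depth limits what can be said of genes under 1 RPKM.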
